A study of Homo sapiens with 6 samples.

Results

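The miR-200 family and miR-205 are the microRNAs (miRNAs) best known as marks of epithelial cells, and 6 of their mature strands were examined in extracellular vesicles (EVs) shed by MDA-MB-231, a human triple-negative breast cancer line. The strands were chosen by name: hsa-miR-200a-3p, hsa-miR-200b-3p, hsa-miR-200c-3p, hsa-miR-141-3p, hsa-miR-429 and hsa-miR-205-5p. All 6 were present among the 832 miRNAs of the deposited table, of which 782 carried miRBase names. The study compared EVs of unmodified MDA-MB-231 cells (231 EV, the control EVs, genotype WT, n = 3) with EVs of the same line after knockdown of ACO1 (231/ACO1 KD EV, the knockdown EVs, n = 3). ACO1 is the cytosolic aconitase, which also acts as an iron-regulated RNA-binding protein, and the comparison asks which EV miRNAs change when it is lowered. Both groups were grown with fetal bovine serum, their EVs were collected from EV-free medium and pelleted by ultracentrifugation, and small RNA was sequenced. The knockdown method is not given in the sources used here, and small RNA libraries do not measure ACO1 mRNA, so the knockdown could not be checked in these data. By RT-qPCR the study reports a partial knockdown of ACO1 in MDA-MB-231/miR-33a cells. Nothing states that the replicates came from separate cultures, so the spread between libraries that p-values rest on may be technical.

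A miRNA pairs with target mRNAs mainly through its seed, the stretch from base 2 to base 8, and lowers their translation and stability. In epithelial cells the miR-200 family and miR-205 repress ZEB1 and ZEB2, transcription factors that switch off E-cadherin, and ZEB factors in turn repress the miR-200 genes. Their loss is a known feature of epithelial-mesenchymal transition (EMT), and MDA-MB-231 is a standard model of the mesenchymal-like state, although the labels call its cells epithelial.

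The mature sequences are shown because the seed divides these miRNAs into groups with different targets and because near-identical strands limit how reads can be assigned. They come from RefSeq on GRCh38.p14 and are written 5′ to 3′, with the seed in capitals.
hsa-miR-200a-3p: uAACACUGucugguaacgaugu
hsa-miR-141-3p: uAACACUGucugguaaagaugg
hsa-miR-200b-3p: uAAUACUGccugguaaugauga
hsa-miR-200c-3p: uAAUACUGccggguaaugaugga
hsa-miR-429: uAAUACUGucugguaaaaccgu
hsa-miR-205-5p: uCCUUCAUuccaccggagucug

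The first pair shared the seed AACACUG, the next 3 shared AAUACUG, and miR-205-5p had the unrelated seed CCUUCAU. Among the 715 miRBase-named miRNAs of the table that matched a RefSeq sequence, no other miRNA held any of these seeds. miR-200a-3p and miR-141-3p differed at 2 of 22 positions (17 and 22, counted from the 5′ end). miR-200b-3p and miR-200c-3p also differed at 2 of the 22 positions compared (11 and 22). Reads could therefore be split between the members of each pair, and their separate values are less certain than their sums.

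The family lies in 2 clusters, all on the plus strand. miR-200b-3p (chr1:1167160-1167181), miR-200a-3p (chr1:1167916-1167937) and miR-429 (chr1:1169055-1169076) come from hairpins within 1984 bases of chromosome 1. miR-200c-3p (chr12:6963742-6963764) and miR-141-3p (chr12:6964155-6964176) come from hairpins within 493 bases of chromosome 12, inside the noncoding gene MIR200CHG and in none of its exons in GENCODE release 29. miR-205-5p (chr1:209432166-209432187) lies far from the first cluster, within the noncoding gene MIR205HG. The MIR205HG exons that overlap the miR-205 hairpin start at position 209432204, after the 5p strand.

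Control EV libraries held 224948 to 230562 miRNA counts and knockdown EV libraries held 67873 to 175924, so 1 read was worth 4.34 to 4.45 TPM in controls and 5.68 to 14.7 TPM in the knockdown (TPM scales each library's miRNA counts to the same total). A count of 0 allows up to 3 reads, equal to 13.0 to 13.3 TPM for controls but 17.1 to 44.2 TPM for the knockdown. Knockdown replicate 3 stood apart from the other libraries of its group. Its chi-square per degree of freedom was 29.3 against replicate 1 and 20.4 against replicate 2, while replicates 1 and 2 differed by 7.98 and the control libraries differed by 4.32 to 5.44. hsa-miR-21-5p, the most abundant miRNA, took 28.5% to 31.2% of counts in control EVs, 12.2% and 11.7% in knockdown replicates 1 and 2, and 18.4% in knockdown replicate 3.

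Each of the 6 miRNAs had reads in EVs of this mesenchymal-like line (miR-429 in 5 of 6 libraries), and their sum was a small share of all miRNA reads. Together they held 213, 227 and 193 reads in the control libraries and 112, 42 and 156 reads in the knockdown libraries. Their summed level was 947, 985 and 858 TPM in control EVs and 637, 619 and 992 TPM in knockdown EVs, or 0.0619% to 0.0992% of all miRNA reads. The knockdown values lay on both sides of the control values, with replicate 3 the highest of all 6 libraries. The mean was 929.7 ± 65.1 TPM for controls and 749 ± 210.3 TPM for the knockdown (SD, n = 3 each).

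**Figure D1:**
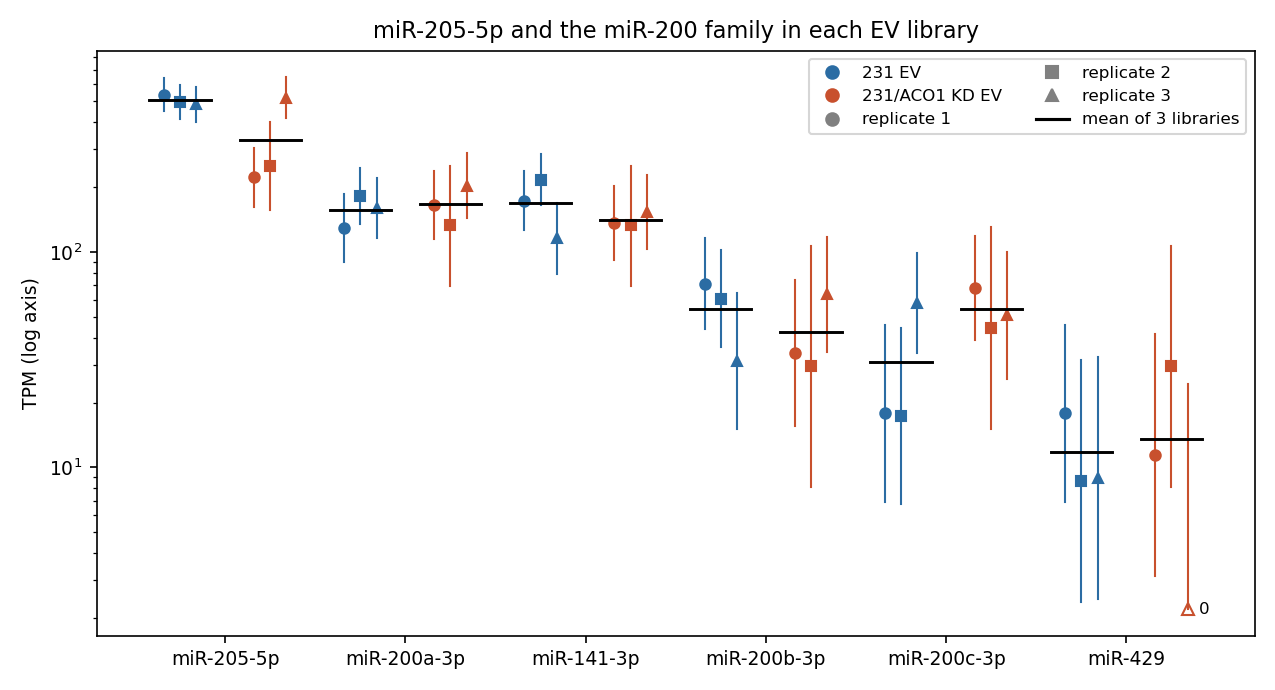
Level of each miRNA in each library, in TPM on a log axis, with 95% Wilson intervals as vertical bars and the mean of 3 libraries as a black line; the open triangle marks 0 counts, with its bar reaching the upper bound. miR-205-5p was highest in every library, and its knockdown replicate 3 sat at 521 TPM, within the control range.

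miR-205-5p was the most abundant of the 6. It had 121, 115 and 109 reads in control EVs, equal to 538, 499 and 484 TPM. In knockdown EVs it had 39, 17 and 82 reads, equal to 222, 250.5 and 521 TPM. Knockdown replicates 1 and 2 were below every control library, whereas replicate 3 lay between control replicates 1 and 2, so the groups overlapped on the TPM scale. The 95% Wilson intervals of knockdown replicate 1 (162 to 303 TPM) and replicate 2 (156 to 401 TPM) ended below the lowest control interval of 402 to 584 TPM. Wilson intervals cover counting error only, and may be too narrow even for that, since PCR copies are not independent molecules. The means were 507 ± 27.7 and 331 ± 165 TPM (SD, n = 3 each), and on log2(TPM + 1) an exact permutation test (two-sided) gave p = 0.3, where the smallest p that 3 against 3 libraries allow is 0.1.

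The TPM scale divides by all miRNA counts, and so moves with miR-21-5p. After scaling by trimmed means of M values (TMM), which sets the bulk of miRNAs equal, miR-205-5p was at 588, 556 and 577 CPM (counts scaled to a common library size) in control EVs and 200, 209 and 477 CPM in knockdown EVs. On this scale all 3 knockdown libraries were below all 3 controls, as were 12.8% of the 517 miRNAs tested. On TPM, 5.8% of tested miRNAs were lower in the knockdown without overlap, and miR-205-5p was not among them.

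miR-205-5p was the only one of the 6 that changed past the threshold between EV groups. With TMM scaling its log2 fold change was -0.93 (SE 0.26, 95% interval -1.43 to -0.42), a level in knockdown EVs 0.526 times the control level, with adjusted p = 0.00749 in the edgeR quasi-likelihood fit, by Benjamini-Hochberg over all miRNAs tested. That fit took its spread from all miRNAs together, so its p-value does not reflect the spread of miR-205-5p itself. On TMM-scaled CPM miR-205-5p was at 573 ± 16.4 in control EVs and 296 ± 158 in knockdown EVs (SD, n = 3 each). With this edgeR test 6.0% of the 517 tested miRNAs were lower and 2.51% were higher, so 1 of 6 called lower is read against that background. When the library totals were used instead, the log2 fold change of miR-205-5p was -0.59 (SE 0.26) and edgeR no longer called it (Benjamini-Hochberg adjusted p = 0.122). With library totals 2.51% of tested miRNAs were called lower and 11.2% higher. The median log2 fold change of all tested miRNAs was -0.03 with TMM and 0.32 with library totals, and relative to that median miR-205-5p was at -0.90 under both. The scalings shift all miRNAs by nearly the same amount, so this agreement was fixed in advance and adds no support. With the added requirement of a log2 fold change beyond 1 in size, 2.32% of tested miRNAs were called lower and none of the 6 was called in either direction.

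The size of the miR-205-5p difference turned on which knockdown library was left out. Without knockdown replicate 3 it was -1.48 (SE 0.25, Benjamini-Hochberg adjusted p = 8.99e-06, edgeR). Without replicate 1 it was -0.65 (SE 0.27, adjusted p = 0.13 in the same edgeR test). The call was also lost without control replicate 1 (log2 fold change -0.90, adjusted p = 0.0557, edgeR) and without control replicate 3 (log2 fold change -0.93, adjusted p = 0.0525, edgeR). The direction was down in each of these fits.

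**Figure D2:**
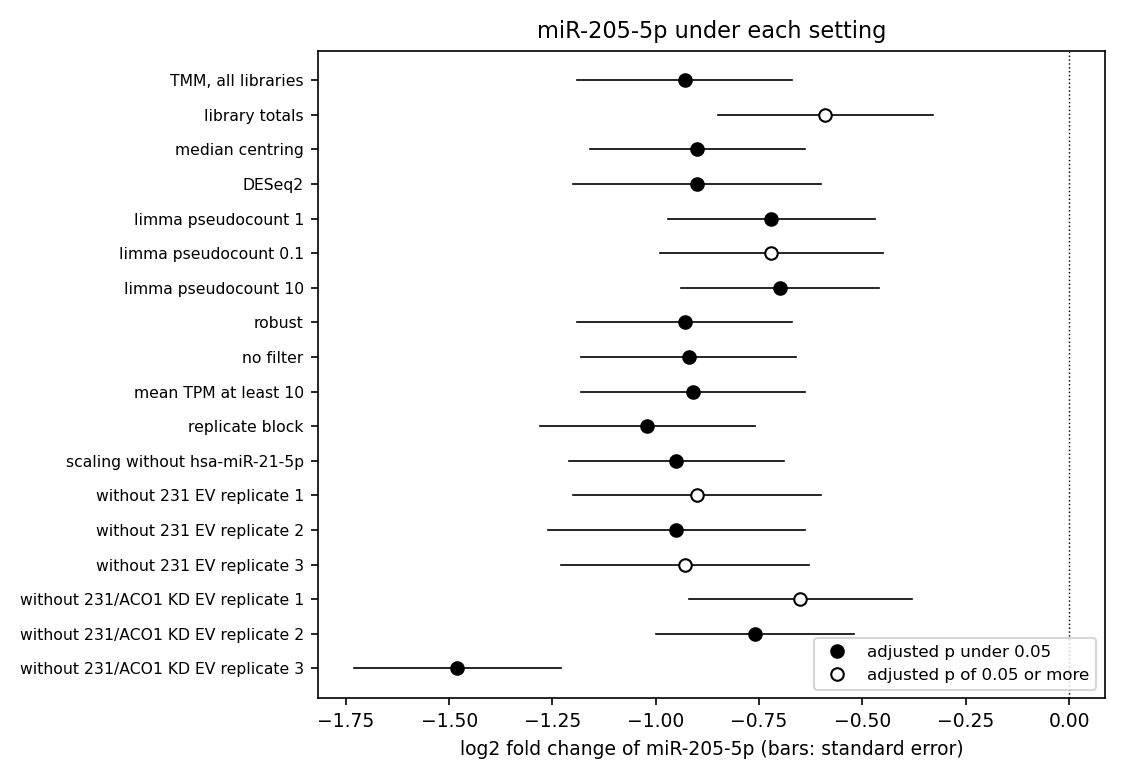
log2 fold change of miR-205-5p, knockdown against control EVs, under each scaling, test, filter and left-out library, with standard errors as bars; filled points have adjusted p under 0.05. All values lie below 0, from -1.48 without knockdown replicate 3 to -0.59 with library totals.

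A ratio within a library does not depend on scaling. miR-205-5p supplied 56.8%, 50.7% and 56.5% of the reads of the 6 miRNAs in control EVs, and 34.8%, 40.5% and 52.6% in knockdown EVs. Knockdown replicates 1 and 2 were below all controls and replicate 3 was within the control range. The mean share was 54.6% ± 3.46 in control EVs and 42.6% ± 9.06 in knockdown EVs (SD, n = 3 each).

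**Figure D3:**
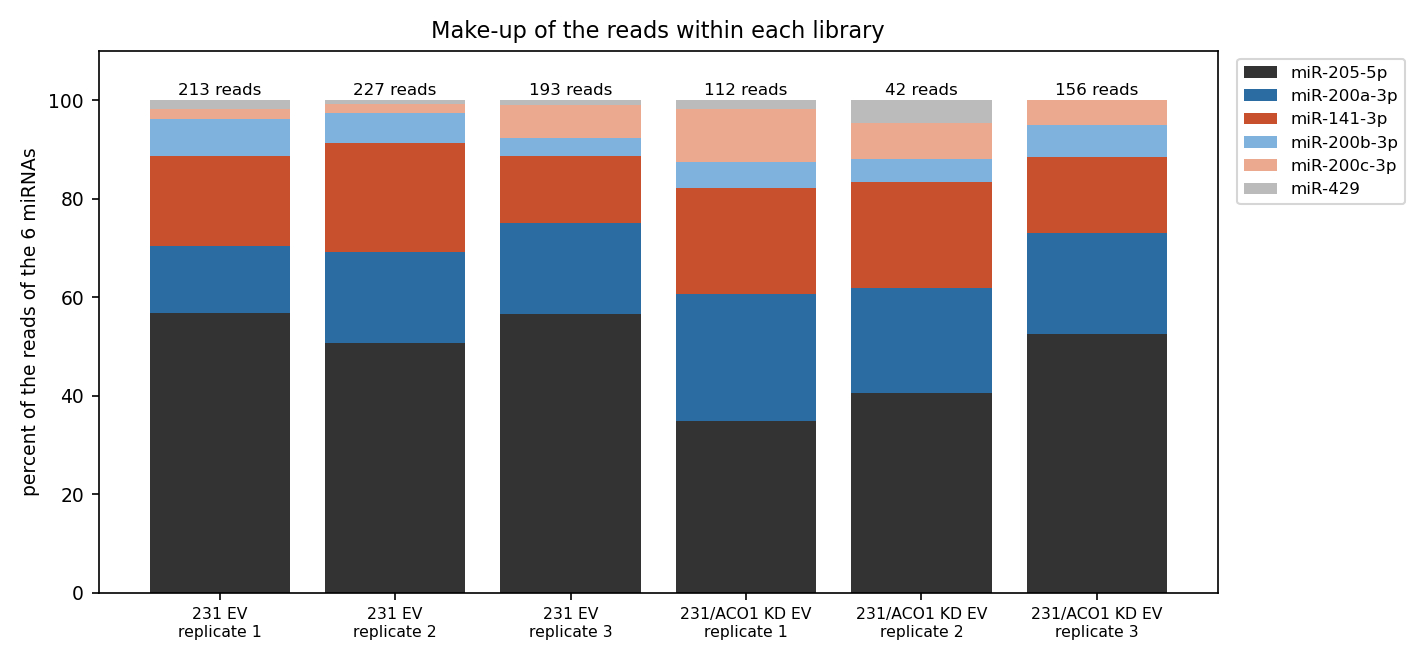
Percent of the reads of the 6 miRNAs taken by each, per library, with the number of reads above each bar. miR-205-5p took 50.7% to 56.8% in control EVs and 34.8% to 52.6% in knockdown EVs, where the bar of replicate 2 rests on 42 reads.

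Of the seed group AACACUG, miR-200a-3p had 29, 42 and 36 reads in control EVs, or 129, 182 and 160.0 TPM. In knockdown EVs it had 29, 9 and 32 reads, or 165, 133 and 203 TPM. The groups overlapped, with knockdown replicate 3 above every control and control replicate 1 below every knockdown library, and means of 157 ± 26.7 and 167 ± 35.4 TPM (SD, n = 3 each). The fitted log2 fold change was -0.22 with TMM (95% interval -0.83 to 0.40, Benjamini-Hochberg adjusted p = 0.799, edgeR) and 0.13 with library totals (95% interval -0.48 to 0.74), so its sign followed the scaling.

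miR-141-3p, its partner by seed, had 39, 50 and 26 reads in control EVs, or 173, 217 and 116 TPM. In knockdown EVs it had 24, 9 and 24 reads, or 136, 133 and 153 TPM. All 3 knockdown values lay inside the wider control range, with means of 169 ± 50.8 and 141 ± 10.6 TPM (SD, n = 3 each). Its log2 fold change was -0.59 with TMM (SE 0.32, 95% interval -1.22 to 0.04), which did not pass edgeR's test (Benjamini-Hochberg adjusted p = 0.307). With library totals it was -0.25 (95% interval -0.88 to 0.38). These intervals leave room for a more than 2-fold fall of miR-141-3p under TMM and for no change.

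The seed group AAUACUG was scarcer. miR-200b-3p had 16, 14 and 7 reads in control EVs, or 71.1, 60.7 and 31.1 TPM, and 6, 2 and 10 reads in knockdown EVs, or 34.1, 29.5 and 63.6 TPM. The groups overlapped, and the log2 fold change of -0.61 (95% interval -1.70 to 0.48) did not pass edgeR's test (Benjamini-Hochberg adjusted p = 0.654).

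miR-200c-3p was the one of the 6 with a positive estimate under both scalings. It had 4, 4 and 13 reads in control EVs, or 17.8, 17.3 and 57.8 TPM, and 12, 3 and 8 reads in knockdown EVs, or 68.2, 44.2 and 50.9 TPM. The third control library lay among the knockdown values. Its log2 fold change was 0.51 with TMM (95% interval -0.69 to 1.71, Benjamini-Hochberg adjusted p = 0.754, edgeR) and 0.85 with library totals (95% interval -0.36 to 2.06), and neither fit called it.

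miR-429 was at the limit of these libraries, with 4, 2 and 2 reads in control EVs (17.8, 8.67 and 8.89 TPM) and 2, 2 and 0 reads in knockdown EVs (11.4, 29.5 and 0 TPM). It passed 3 reads in 1 of 6 libraries. Its log2 fold change of -0.49 had a 95% interval of -2.60 to 1.62, so a difference was not detectable at this depth.

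**Figure D4:**
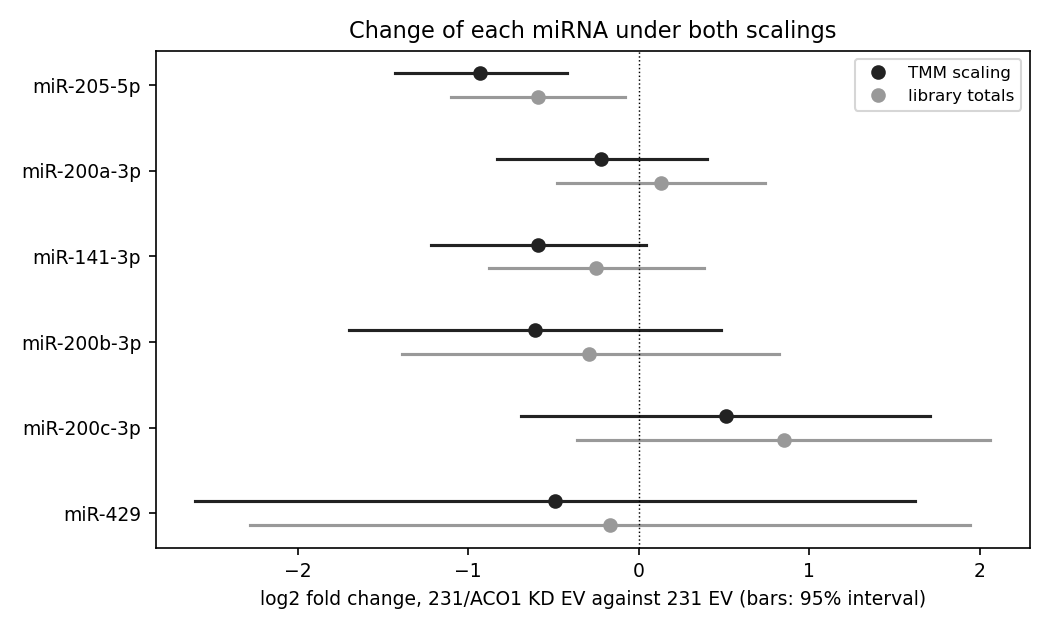
log2 fold change of each miRNA in knockdown against control EVs, with 95% intervals, under TMM scaling (black) and library totals (grey). The interval of miR-205-5p lies below 0 under both scalings, and the intervals of the 5 miR-200 miRNAs include 0.

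Summed, the 5 miR-200 miRNAs were at 409, 486 and 373 TPM in control EVs and 415, 368 and 470.4 TPM in knockdown EVs. The groups overlapped, with means of 423 ± 57.5 and 418 ± 51.1 TPM (SD, n = 3 each). On TMM-scaled CPM the means were 477 ± 55.1 and 371 ± 61.7 (SD, n = 3 each), so the summed family was level on one scale and lower on the other. The chromosome 1 cluster was at 223 ± 26.2 TPM in control EVs and 223 ± 39.3 TPM in knockdown EVs, and the chromosome 12 cluster was at 199.6 ± 31.3 and 195 ± 15.7 TPM. The AACACUG seed group was at 326 ± 65.0 and 307 ± 45.7 TPM, and the AAUACUG group was at 97.1 ± 9.99 and 110.4 ± 6.31 TPM (SD, n = 3 each). The chromosome 1 cluster held 52.9% ± 0.954 of family reads in control EVs and 53.1% ± 3.19 in knockdown EVs, a balance between clusters that differed by less than the replicate spread.

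Members of a cluster were unequally represented among the reads. Whether each sequence was captured equally was not tested, which also limits the order of levels below. Over all libraries miR-200a-3p took 177 of the 244 reads of the chromosome 1 cluster (72.5%), miR-200b-3p took 22.5% and miR-429 took 4.92%. On chromosome 12, miR-141-3p took 172 of 216 reads (79.6%). The AACACUG seed group therefore held 349 of the 460 reads of the family (75.9%).

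The strands opposite to these were close to absent. miR-200a-5p had 1 read in all 6 libraries, miR-200b-5p had 5 and miR-141-5p had 5. The 3p strand made up 99.4% of the reads of the miR-200a hairpin (95% Wilson interval 96.9% to 99.9%), 91.7% for miR-200b (81.9% to 96.4%) and 97.2% for miR-141 (93.6% to 98.8%). miR-200b-5p and miR-141-5p entered the test and were not called (Benjamini-Hochberg adjusted p = 0.742 and 0.799, edgeR). The opposite strands of miR-200c and miR-205 were not among the miRNAs measured.

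In order of mean level over 6 libraries, miR-205-5p came 112th of 832 miRNAs, miR-200a-3p 156th, miR-141-3p 164th, miR-200b-3p 254th, miR-200c-3p 264th and miR-429 368th. miR-205-5p exceeded each other member in 6 of 6 libraries. miR-200a-3p and miR-141-3p could not be ordered, since the former was higher in 3 libraries, tied in 1 and lower in 2. miR-200b-3p and miR-200c-3p could not be ordered either, each being higher in 3. Both exceeded miR-429 in 5 libraries and tied with it in 1. The median of the 832 miRNAs was at 8.44 TPM and that of the 517 tested was at 44.2 TPM, above miR-200c-3p (42.7 TPM) and miR-429 (12.7 TPM). The neighbours in the order were hsa-miR-196a-5p (420.1 TPM) and hsa-miR-98-5p (418 TPM) around miR-205-5p, hsa-miR-199b-5p and hsa-miR-135b-5p around miR-200a-3p, hsa-miR-378a-5p and hsa-let-7d-3p around miR-141-3p, hsa-miR-125a-3p and hsa-miR-4454 around miR-200b-3p, hsa-miR-1260b and hsa-miR-18a-3p around miR-200c-3p, and hsa-miR-193b-3p and hsa-miR-127-5p around miR-429.

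**Figure D5:**
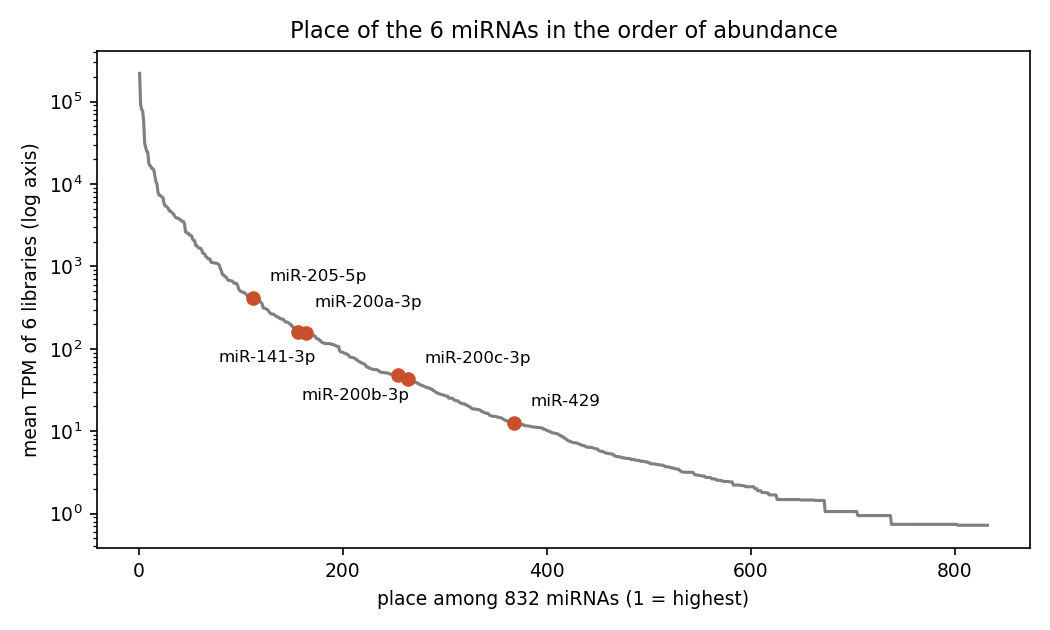
Mean TPM of 6 libraries (log axis) for all 832 miRNAs in order of abundance, with the 6 miRNAs marked. miR-205-5p stood 112th and miR-429 stood 368th, and all 6 were above the median of the 832 miRNAs at 8.44 TPM, with miR-200c-3p and miR-429 below the median of 44.2 TPM of the 517 tested.

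The miRNAs whose levels followed each of the 6 most closely were found by Pearson's r of log2 TMM-scaled CPM over the 6 libraries, among miRNAs with a mean of at least 20 reads. The 6 points share the group difference and the library depths, so r is given as a description. For miR-205-5p these were hsa-miR-125b-1-3p (r = 0.996), hsa-miR-425-5p (r = 0.990) and hsa-miR-23a-3p (r = 0.987). For miR-200a-3p they were hsa-miR-144-3p (r = 0.897), hsa-miR-26a-5p (0.863) and hsa-miR-374a-5p (0.861). For miR-141-3p they were hsa-miR-33a-5p (r = 0.949), the miRNA that the study centres on, hsa-miR-144-5p (0.905) and hsa-miR-107 (0.872). For miR-200b-3p they were hsa-miR-144-5p (r = 0.928), hsa-miR-33a-5p (0.904) and hsa-miR-22-5p (0.886). For miR-200c-3p the nearest was weaker, hsa-let-7a-5p (r = 0.840), followed by hsa-miR-30d-5p (0.776) and hsa-miR-452-5p (0.775). miR-429 had too few reads for this.

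Within the 6, miR-141-3p and miR-200b-3p, which lie on different chromosomes, had r = 0.85, and miR-205-5p and miR-200b-3p had r = 0.81. miR-141-3p and miR-200c-3p, neighbours in 1 cluster, had r = -0.76. The reads of miR-200c-3p were 3 to 13 a library, so counting error is a large part of its spread.

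As a list, the miRNAs grouped here as other epithelial took a larger share of reads than the 6. Whether each of them is particular to epithelial cells was not tested. Of 12 names listed, 10 were measured, together 0.773% to 0.812% of counts in control EVs and 0.868% to 1.06% in knockdown EVs. None of the 10 passed the edgeR test with TMM after adjustment, 3 had an unadjusted p under 0.05, and 1 was called higher in each of several other fits: edgeR with robust estimation, median centring or a filter of mean TPM at least 10, DESeq2, and limma at every pseudocount. Their median log2 fold change was -0.21, set beside -0.03 for all tested miRNAs and -0.54 for the 6 miRNAs. With library totals 1 of the 10 rose and the median was 0.15, and without knockdown replicate 3 (TMM) 1 rose and 1 fell. hsa-miR-182-5p, of the miR-183 cluster, was at 2361 ± 235 and 2672 ± 550.4 TPM. hsa-miR-224-5p, the one that rose with library totals (log2 fold change 0.83, adjusted p = 7.73e-05, edgeR), was at 1534 ± 21.6 and 2737 ± 338 TPM. hsa-miR-192-5p was at 1645 ± 123 and 1924 ± 152 TPM (SD, n = 3 each). The scarcest of the list were hsa-miR-215-5p, hsa-miR-375-3p and hsa-miR-203a-3p, with means over all libraries of 33.2, 15.2 and 11.5 TPM. hsa-miR-203a-3p had 8, 1 and 2 reads in control EVs and 1, 1 and 0 in knockdown EVs. The share of the list therefore does not describe each of its members.

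Mesenchymal or EMT-associated miRNAs made up 41.3% to 43.4% of counts in control EVs and 25.7% to 32.2% in knockdown EVs. Of these counts hsa-miR-21-5p alone held 28.5% to 31.2% of the library in control EVs and 11.7% to 18.4% in knockdown EVs. The lower share in knockdown EVs therefore follows miR-21-5p and does not describe the list as a whole. Of 13 measured, 5 fell and 1 rose with TMM, with a median log2 fold change of -0.39 (3 to 5 fell and 0 to 2 rose when single libraries were left out), while with library totals 3 fell, 4 rose and the median was -0.04. Over all tested miRNAs 6.0% fell and 2.51% rose with TMM (median -0.03), and 2.51% fell and 11.2% rose with library totals (median 0.32). Those that fell with TMM were hsa-miR-21-5p (log2 fold change -1.44), a widely known oncogenic miRNA, hsa-miR-100-5p (-0.89), hsa-miR-221-3p (-0.87), hsa-miR-222-3p (-0.56) and hsa-miR-22-3p (-0.59), of which miR-222-3p and miR-22-3p were not called with library totals. hsa-miR-199a-5p rose by 1.25 with TMM (adjusted p = 0.00981, edgeR). hsa-miR-125b-5p, second in level on this list, had a log2 fold change of 0.10 and was not called with TMM. With library totals it was among those that rose (0.46, adjusted p = 0.00152, edgeR).

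Markers of red cells, leukocytes and liver were present in every library, and all 9 listed were measured. They held 1.21% to 1.33% of counts in control EVs and 1.65% to 1.87% in knockdown EVs, more than the 6 miRNAs. With TMM 2 rose, the leukocyte miRNAs hsa-miR-223-3p (log2 fold change 0.51, adjusted p = 0.0226, edgeR) and hsa-miR-150-5p (0.72, adjusted p = 0.0215, edgeR), and 2 fell, the red cell miRNAs hsa-miR-451a (-0.94, adjusted p = 0.000136, edgeR) and hsa-miR-486-5p (-1.08, adjusted p = 0.000928, edgeR), with a median of -0.10. With library totals 4 rose, the same 2 fell and the median was 0.26, below the median of 0.32 for all tested miRNAs, of which 11.2% rose and 2.51% fell. Both rises with TMM were lost when any 1 control library was left out, that of miR-223-3p also without knockdown replicate 1, and the fall of miR-486-5p was lost without control replicate 3. The most abundant were hsa-miR-142-3p (4313 ± 443 and 5908 ± 258 TPM), hsa-miR-223-3p (2479 ± 256 and 4529.9 ± 695 TPM) and hsa-miR-142-5p (1799 ± 142 and 2988 ± 479 TPM; SD, n = 3 each). None of the 9 was at 0 in any library, and their part in the levels of the 6 miRNAs was not tested.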

How the data were processed

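Per the study's methods and the labels, small RNA reads of EVs were trimmed, kept at 18 to 32 nt, cleared of Rfam 10.1 RNAs, aligned with Bowtie2 (hg38) and named by miRBase release 21, although some names in the table (such as hsa-miR-375-3p) follow later releases. The authors deposited 1 table with raw read counts and TPM per miRNA and library. The deposited TPM equalled the count divided by the library's miRNA total and scaled to a common sum, so it carries no length term. The members and lists were chosen with earlier results of these data known.

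Counts were tested with edgeR 4.0.16 (R 4.3.3, quasi-likelihood test, TMM, miRNAs with a count in at least 3 libraries, no covariates, Benjamini-Hochberg over 517 miRNAs). The biological coefficient of variation, from the common dispersion, was 20.8%. The quasi-dispersion of each miRNA was fully shrunken to a value estimated from all miRNAs (infinite prior degrees of freedom). All 6 libraries entered, and groups came from the sample titles. Exact permutation tests used scipy 1.17.1. The test script was tested on simulated data. Alternatives used library totals, median centring, DESeq2 1.42.0, limma 3.58.1 on log2(TPM + pseudocount), other filters, a replicate block and left-out libraries. Requiring a log2 fold change beyond 1, and scaling without hsa-miR-21-5p, were added after seeing the data.

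Genes were named by rule: the 6 members, their opposite strands, the nearest miRNAs in level, the 3 with the highest r for each member with 20 or more reads in all, and from each list (other epithelial, mesenchymal or EMT-associated, and red cell, leukocyte and liver miRNAs) the 3 most abundant plus those called. hsa-miR-224-5p was also called with library totals. The 3 scarcest of the other epithelial list were named as well. Sequences were matched by name to RefSeq.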

Additional observations from a re-analysis of the deposited data

How the results depend on the processing

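The count of the 6 miRNAs called was 1, and it became 0 with library totals, with limma at a pseudocount of 0.1, and when a log2 fold change beyond 1 was also required. It ranged from 0 to 1 when libraries were left out. In these fits with 0 adjusted calls 1 or 2 of the 6 had an unadjusted p under 0.05, and DESeq2 called 1. miR-205-5p stayed below 0 in all 17 alternatives and passed the threshold in 12. Its log2 fold change was -0.59 with library totals (adjusted p = 0.122, edgeR) and -0.72 with limma at a pseudocount of 0.1 (adjusted p = 0.0906), and it ranged from -1.48 to -0.65 over the left-out libraries; the cause was not tested. The estimate of miR-200a-3p turned positive with library totals (0.13) and with limma at pseudocounts of 1, 0.1 and 10 (0.08 each), and that of miR-429 ranged from -1.20 to 0.17 over the left-out libraries, positive only without knockdown replicate 3, which had 0 reads of it. No alternative called a miR-200 member. The log2 ratio of the summed level was -0.31 on TPM, -0.02 without miR-205-5p and -0.66 on TMM-scaled CPM. Over all tested miRNAs 44 were called, against 71 with library totals, 75 and 76 with limma at pseudocounts of 1 and 10, and 19 to 65 with a library left out.

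The labels give same-numbered libraries only a common number. Their deviations from the group means correlated at -0.133, 0.034 and 0.22 over 226 miRNAs, and 3 of 6 libraries correlated best with their own number. So few libraries cannot show whether those of the same number were handled together. With the replicate number as a block, edgeR again called 44 miRNAs, and miR-205-5p was at -1.02 (adjusted p = 0.00195). Depth limits the scarcer strands most, since 1 read was worth 14.7 TPM in knockdown replicate 2.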

Other observations

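The study gives CAUUG as the sequence bound by ACO1 in its docking model, and its pulldown mutated the longer CAUUGC. In that pulldown miR-33a mutated outside CAUUGC, which lost its other CAUUG, still bound ACO1. Holding CAUUG alone is therefore not the mark of binding in the pulldown, and the share of miRNAs holding CAUUGC is not given here. On the RNA strand, 21 of the 715 matched mature miRNAs (2.94%) held CAUUG, and none of the 6 members did. Of their opposite strands, miR-200b-5p held CAUUG but not CAUUGC, and with 5 reads in all its level could not be compared between groups. miR-141-5p had no matched sequence and was not searched.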
